A study of Mus musculus with 23 samples.

Results

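Genes of the SREBP program, 36 in all, were followed in lung tumor cells of mice: 5 regulators, 18 genes of cholesterol synthesis and transport, called here the sterol arm, and 13 genes of fatty acid synthesis and remodeling, called the fatty acid arm. Members were taken by symbol from a list of the pathway, and all 36 were found among the 35455 genes of one deposited table and the 35454 genes of the other. RNA was sequenced from 23 samples of flow sorted tdTomato+ cells. Each mouse carried the *Braf* CAT allele (CAT/+), which after Cre recombination expresses BRAFV600E together with tdTomato, so every group, controls included, shares this driver and there is no sample without it. One table held 6 BRAFV600E samples (CAT/+) and 8 BRAFV600E/PI3KαH1047R samples (CAT/+; HR/+), which also express PI3KαH1047R. BRAFV600E samples numbered 1, 3 and 2 and BRAFV600E/PI3KαH1047R samples 2, 4 and 2 at 2, 6 and 12 weeks post-initiation (p.i.). The other table, normalized apart, held 5 BRAFV600E/PGC1αHet samples (CAT/+; PGC1a mutant/+) and 4 BRAFV600E/PGC1αNull samples (CAT/+; PGC1a mutant/mutant), all at 12 weeks p.i., whose floxed *Ppargc1a* was deleted on 1 or both alleles. Tumors were started in adult mice of mixed background with an adenovirus in which the *Sftpc* promoter drives Cre, which directs recombination to alveolar type 2 (AT2) cells. Mice kept for 12 weeks received less virus than those kept for 2 or 6 weeks, so tumor age and virus dose cannot be told apart in comparisons with 12 weeks.

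SREBP1 and SREBP2 are transcription factors made as precursors in the membrane of the endoplasmic reticulum. When sterols are scarce, SCAP escorts them to the Golgi, where they are cut and freed to enter the nucleus, whereas INSIG proteins hold SCAP back when sterols are plentiful. SREBP2 is known mainly for cholesterol synthesis and SREBP1 for fatty acid synthesis, and signaling through PI3K, AKT and mTORC1 is known to raise SREBP activity. AT2 cells make the lipid-rich lung surfactant and are known for active fatty acid and phospholipid synthesis. The comparisons below addressed whether the sterol and fatty acid arms differed by PI3Kα genotype, by week and by PGC1α genotype.

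The values are normalized counts, which summed to between 16433820 and 20287296 per sample in the first table and between 7115753 and 9159567 in the second. Depth in reads is unknown. Markers of AT2 cells were present in every group, with none of the 10 genes at 0 in any sample, and their summed count ranged from 467314 to 1282976 in BRAFV600E and from 57634 to 950959 in BRAFV600E/PI3KαH1047R samples. The 3 samples with the lowest AT2 marker level, which were BRAFV600E/PI3KαH1047R replicates 1 and 2 at 2 weeks and replicate 1 at 6 weeks, had a mean log2 marker level of 12.45, 11.56 and 13.22, against 14.12 to 15.59 in the other samples. The same 3 samples had the highest endothelial marker level, at 12.00, 11.90 and 12.42, against 8.33 to 11.33 elsewhere. They were also highest in fibroblast markers, at 10.27, 10.84 and 10.51 against at most 9.90, and in markers of alveolar type 1 (AT1) cells, at 13.20, 13.42 and 12.94 against at most 12.93. Fewer cells of a type and less RNA per cell cannot be told apart in such sorted bulk samples. The Y-linked gene *Kdm5d* went against the sex labels of the 2 BRAFV600E/PI3KαH1047R samples at 12 weeks, reading 502 in the male and 4728 in the female, and results are given with and without these 2 samples where they moved. *Ppargc1a*, the gene deleted in the second table, had normalized counts of 75.8, 170, 155, 200 and 561 in BRAFV600E/PGC1αHet and of 72.7, 38.0, 51.6 and 124 in BRAFV600E/PGC1αNull samples. These ranges overlapped, and the log2 fold change was -1.51 ± 0.50 (standard error) with a limma adjusted p of 0.978. Which exons the counts of this gene fall on is not given in the sources used here.

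Promoter sequence was examined because SREBPs bind DNA beside general factors such as NF-Y and Sp1. RefSeq entries on GRCm38.p6 were matched for 29 members, with 39 promoter windows of 300 bases, and 4 motifs were searched on both strands: a core SREBP element TCACNCCAC, the E-box CACGTG, the NF-Y box CCAAT and the GC box GGGCGG. None of these letters contains another of the motifs. The SREBP element was found in 1 of 39 member windows and in 1.24% of all 32851 windows. The E-box was found in 7 member windows and in 7.15% of all, the NF-Y box in 26 and in 37.4% of all, and the GC box in 28 and in 35.7% of all. A match describes letters only, and windows of 1 gene can overlap. The 250 bases before the start are shown for 4 members that hold a searched motif, 5′ to 3′ on the strand of the gene. The motif named for each gene is in capitals, and other searched motifs, where they occur, are left in lower case. *Hmgcs1*, which makes the precursor HMG-CoA, held the only SREBP element, starting 137 bases before the gene start. *Hsd17b7*, an enzyme of late sterol synthesis, held 1 E-box. *Fasn*, fatty acid synthase, held 3 NF-Y boxes, of which a pair share letters, and *Acss2*, which makes acetyl-CoA from acetate, held 4 GC boxes.
Hmgcs1, chr13:119690101-119690350, plus strand: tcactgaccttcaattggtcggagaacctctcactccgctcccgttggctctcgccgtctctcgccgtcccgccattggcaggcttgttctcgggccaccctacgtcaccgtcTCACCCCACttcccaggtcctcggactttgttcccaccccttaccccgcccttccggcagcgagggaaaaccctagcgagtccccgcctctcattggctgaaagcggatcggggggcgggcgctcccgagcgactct
Hsd17b7, chr1:169969206-169969455, minus strand: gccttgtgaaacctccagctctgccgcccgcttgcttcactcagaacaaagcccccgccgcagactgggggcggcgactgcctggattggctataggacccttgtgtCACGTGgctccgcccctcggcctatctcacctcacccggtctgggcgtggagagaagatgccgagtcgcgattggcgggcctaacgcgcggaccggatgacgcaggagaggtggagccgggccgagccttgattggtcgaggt
Fasn, chr11:120824548-120824797, minus strand: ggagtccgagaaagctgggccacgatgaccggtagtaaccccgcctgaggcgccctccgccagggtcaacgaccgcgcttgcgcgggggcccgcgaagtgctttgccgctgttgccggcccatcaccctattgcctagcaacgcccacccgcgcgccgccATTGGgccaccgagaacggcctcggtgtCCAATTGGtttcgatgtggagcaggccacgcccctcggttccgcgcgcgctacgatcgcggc
Acss2, chr2:155517793-155518042, plus strand: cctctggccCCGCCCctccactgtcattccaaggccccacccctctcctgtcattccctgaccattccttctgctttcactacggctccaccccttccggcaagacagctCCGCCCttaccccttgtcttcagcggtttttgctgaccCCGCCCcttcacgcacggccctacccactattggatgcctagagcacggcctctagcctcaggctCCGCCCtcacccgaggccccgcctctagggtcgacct

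Fatty acid genes were the more abundant arm. Per kilobase of the longest GENCODE transcript, the median member of the fatty acid arm had a normalized count of 577 over the 14 samples of the first table, against 124 for the sterol arm and 238 for the regulators. The highest per kilobase were *Elovl1*, an elongase of very long chains, at 4040, *Elovl5*, an elongase of polyunsaturated chains, at 3307, and the stearoyl-CoA desaturases *Scd1* and *Scd2* at 2956 and 2882. Their ranges over samples overlapped. They ran from 754 to 8971 for *Elovl1* and from 2194 to 4438 for *Elovl5*. Those of *Scd1* and *Scd2* ran from 637 to 7031 and from 2089 to 4566. The order of these genes within samples was not tested. In the sterol arm *Pmvk*, the phosphomevalonate kinase, had a median of 411 and *Hmgcs1* one of 233, but their ranges, 83.0 to 747 and 139 to 874, overlapped too. Low medians of 17.1 and 18.8 were those of *Acacb*, the mitochondrial form of acetyl-CoA carboxylase, and *Mvd*, the mevalonate diphosphate decarboxylase, with ranges of 8.20 to 70.6 and 3.96 to 39.98. In the second table the same scale gave medians of 403 for the fatty acid arm, 48.1 for the sterol arm and 108 for the regulators. All 36 members together took 0.287% to 0.611% of the normalized counts of a sample in the first table and 0.275% to 0.530% in the second. The sterol arm took 0.0353% to 0.0643% and 0.0348% to 0.0504%.

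For 8 members over 10% of their 31-base words occur in transcripts of another gene, so the split of reads is less certain for them. *Me1*, the cytosolic malic enzyme that supplies NADPH, had 36.9% in common mainly with *Gm7049*. *Acaca*, the cytosolic acetyl-CoA carboxylase, had 33.5% mainly with *Gm5182*, and *Fdft1*, squalene synthase, 31.9% mainly with *Ctsb*. *Scd1* and *Scd2*, neighbors on chromosome 19 (GRCm38, 44394455 to 44407879 and 44293674 to 44306864), had 8.18% and 6.81% in common with other genes, mainly each other.

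The level of an arm in a sample was the mean of log2(normalized count + 1) over its genes. The fatty acid arm stood at 11.04 ± 0.19 (SD, n = 6) in BRAFV600E and at 10.79 ± 0.35 (n = 8) in BRAFV600E/PI3KαH1047R samples. The sterol arm stood at 8.35 ± 0.17 and 8.42 ± 0.21, and the regulators at 9.47 ± 0.23 and 9.44 ± 0.20. The ranges of both genotypes overlapped in all 3. By week the fatty acid arm read 10.27 and 10.38 in the BRAFV600E/PI3KαH1047R samples at 2 weeks, below the other 12 samples, which ran from 10.72 to 11.32. The sterol arm did not set these 2 samples apart, with 8.42 and 8.20, and its lowest level, 8.08, was that of the single BRAFV600E sample at 2 weeks.

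**Figure D1:**
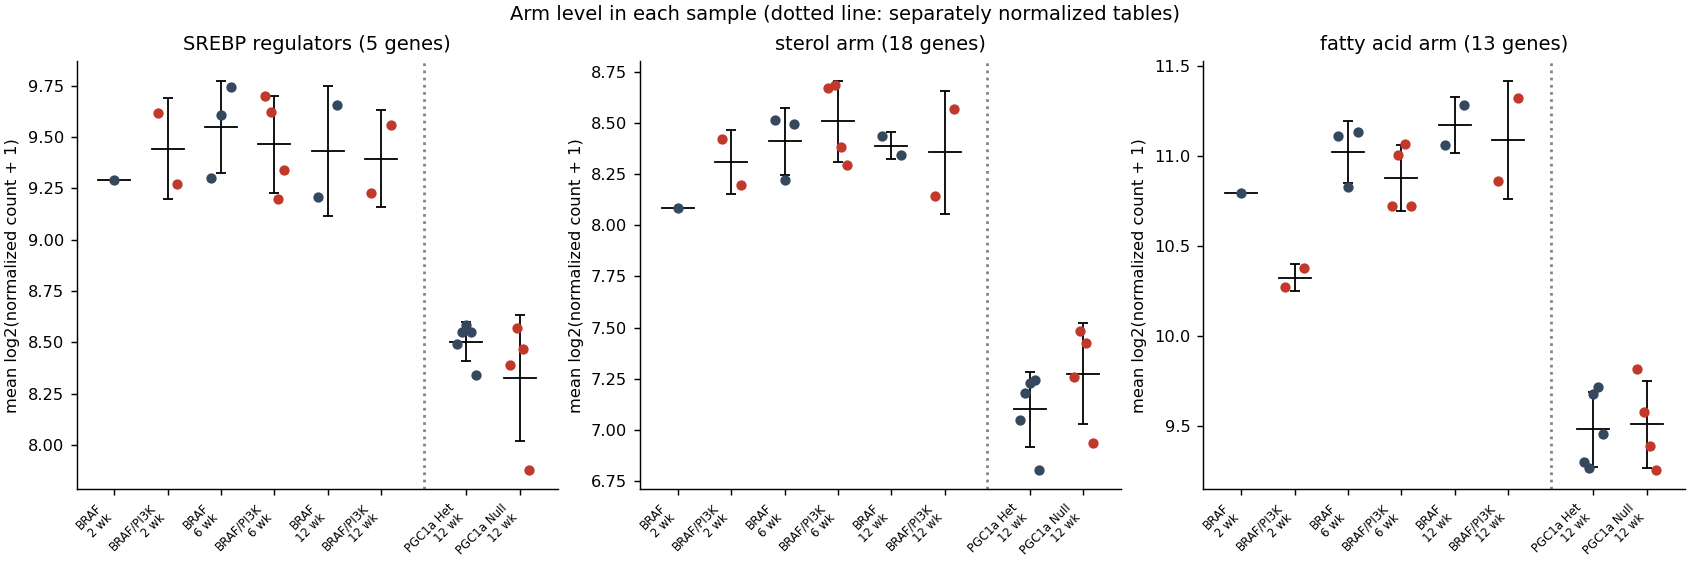
Level of the 3 arms in each of 23 samples, as mean log2(normalized count + 1); dark points are BRAFV600E and BRAFV600E/PGC1αHet, red points BRAFV600E/PI3KαH1047R and BRAFV600E/PGC1αNull, with the mean and SD as lines. Both BRAFV600E/PI3KαH1047R samples at 2 weeks lie at the bottom of the fatty acid panel, at 10.27 and 10.38, and the 2 tables, set apart by the dotted line, were normalized separately.

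Over all weeks, no member passed the test between BRAFV600E/PI3KαH1047R and BRAFV600E. With limma, 0 of 36 had an adjusted p under 0.05, where 0.0228% of the 17558 genes tested did, and 3 had an unadjusted p under 0.05, where 6.83% of all genes did. The median log2 fold change was 0.06 for the regulators, 0.09 for the sterol arm and -0.04 for the fatty acid arm, beside 0.02 over all genes tested. Leaving out 1 sample, the median ran from -0.12 to 0.14 in the regulators, from 0.0175 to 0.17 in the sterol arm and from -0.16 to -0.0412 in the fatty acid arm. Without both BRAFV600E/PI3KαH1047R samples at 12 weeks the fatty acid median was -0.33 and 5 members had an unadjusted p under 0.05. With sex as a factor, as labelled although *Kdm5d* went against the labels of these 2 samples, the fatty acid median turned to 0.0691. BRAFV600E samples were labelled female but for 1 male at 6 weeks. BRAFV600E/PI3KαH1047R samples were labelled 2 male at 2 weeks, 2 male and 2 female at 6 weeks, and 1 of each at 12 weeks. AT2 markers were lower in 10 of 10 genes, with a median of -0.94. AT1 and endothelial markers were higher in 10 of 10, with medians of 0.31 and 0.91. Macrophage markers were higher in 9 of 10 and fibroblast markers in 6 of 8, with medians of 0.74 and 0.63. Lymphocyte markers were lower in 8 of 8 and erythroid markers in 4 of 4 tested, with medians of -0.53 and -0.79. None of these marker genes passed the limma test. The part of these markers in the members' values was not tested. Of the sterol arm 11 had a positive and 7 a negative fold change, and of the fatty acid arm 6 and 7. No member had groups that did not overlap, where 0.211% of all genes did.

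*Acss2* had the lowest fold change of the 36. Its normalized count was 281 in BRAFV600E and 121 and 362 in BRAFV600E/PI3KαH1047R at 2 weeks, 673, 462 and 718 against 174, 305, 253 and 215 at 6 weeks, and 954 and 547 against 503 and 352 at 12 weeks. All 8 BRAFV600E/PI3KαH1047R samples were below the BRAFV600E mean. The genotypes overlapped at 2 weeks, whereas at 6 and at 12 weeks each BRAFV600E/PI3KαH1047R sample was below each BRAFV600E sample of the same week. Such separation in either direction was found for 5.22% of all genes at 6 weeks and for 29.2% at 12 weeks. The log2 fold change was -1.11 ± 0.33, with a 95% interval of -1.80 to -0.41 and a limma adjusted p of 0.466. An exact permutation test of the 8 against 6 samples gave p = 0.00866, and 0.572 after adjustment over all genes. Over the 23 alternative analyses of this comparison the fold change ran from -1.33, without both BRAFV600E/PI3KαH1047R samples at 12 weeks, to -0.86, without the 3 samples of lowest AT2 marker level.

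*Hsd17b7* and *Sqle*, squalene epoxidase, had the 2 highest fold changes of the sterol arm. *Hsd17b7* ranged from 123 to 313 with a median of 246 in BRAFV600E and from 183 to 628 with a median of 372 in BRAFV600E/PI3KαH1047R samples, of which 7 were above the BRAFV600E mean. Its log2 fold change was 0.78 ± 0.29 with an interval of 0.17 to 1.40, a limma adjusted p of 0.605 and an exact permutation p of 0.0213. *Sqle* ranged from 258 to 533 with a median of 362 and from 362 to 653 with a median of 482, with 7 of 8 samples above the BRAFV600E mean. Its log2 fold change was 0.45 ± 0.19 with an interval of 0.04 to 0.86, a limma adjusted p of 0.684 and an exact permutation p of 0.0190. Adjusted over all genes these exact p-values were 0.667 and 0.653, and the values of both genotypes overlapped for both genes.

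None of the 5 regulators passed the test between genotypes. *Srebf1*, which encodes SREBP1, had a median of 482 in BRAFV600E and 376 in BRAFV600E/PI3KαH1047R samples, with ranges of 242 to 952 and 279 to 539. *Srebf2*, which encodes SREBP2, had medians of 1409 and 1146 and ranges of 922 to 1808 and 715 to 1734. Their log2 fold changes were -0.29 ± 0.29 and -0.22 ± 0.21, with 95% intervals of -0.91 to 0.32 and of -0.67 to 0.23. *Scap*, the escort, *Insig1* and *Insig2*, the retention proteins, had log2 fold changes of 0.11 ± 0.32, 0.21 ± 0.27 and 0.06 ± 0.21. Their 95% intervals reached from -0.56 to 0.79, from -0.36 to 0.79 and from -0.39 to 0.51.

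**Figure D2:**
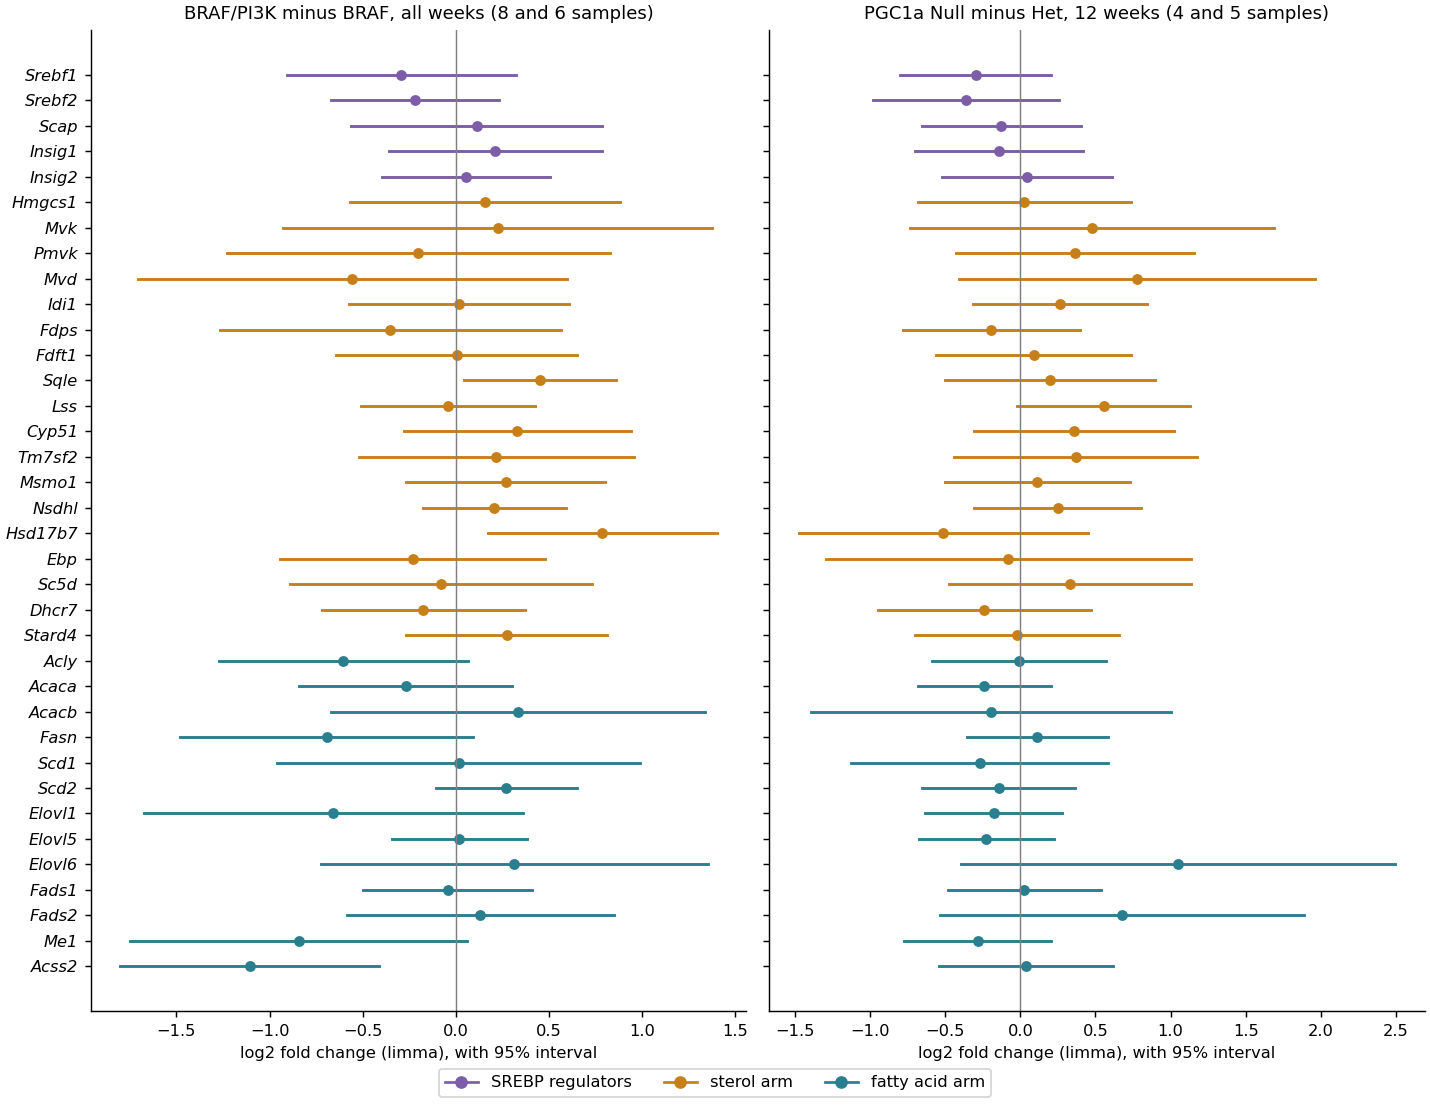
Log2 fold change of each of the 36 members with its 95% interval from limma, for BRAFV600E/PI3KαH1047R minus BRAFV600E over all weeks (left) and BRAFV600E/PGC1αNull minus BRAFV600E/PGC1αHet (right), colored by arm. On the left the intervals of *Sqle*, *Hsd17b7* and *Acss2* lie to one side of 0, from 0.04 to 0.86, 0.17 to 1.40 and -1.80 to -0.41, and on the right none does.

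A few fatty acid genes were low in the same samples. *Acly*, which makes cytosolic acetyl-CoA from citrate, *Fasn*, *Elovl1*, *Me1* and, of the sterol arm, *Pmvk* each had their 3 lowest values among the 14 samples in the 3 samples with the lowest AT2 marker level. These are 4 of 13 fatty acid genes, 1 of 18 sterol genes and 0 of 5 regulators, against 5.09% of all genes tested. This pattern was looked for after the values were seen.
*Acly* read 985 and 1630 in the BRAFV600E/PI3KαH1047R samples at 2 weeks and 1816 in replicate 1 at 6 weeks, and from 2234 to 6132 in the other samples. *Fasn* read 2095, 1500 and 2772 in the same order, and from 4435 to 10683 elsewhere. *Me1* read 1296, 733 and 750, and from 2335 to 5333 elsewhere. For these 3 genes the remaining 5 BRAFV600E/PI3KαH1047R samples lay within the range of the 6 BRAFV600E samples. *Elovl1* read 2249, 1365 and 2924, and from 4729 to 16247 elsewhere. *Pmvk* read 99.1, 124 and 227, and from 294 to 892 elsewhere. Over all weeks the log2 fold changes of *Acly*, *Fasn*, *Elovl1* and *Me1* were -0.60 ± 0.31, -0.69 ± 0.37, -0.66 ± 0.48 and -0.84 ± 0.43, with limma adjusted p-values of 0.738, 0.738, 0.800 and 0.732.
Leaving out the 3 samples, an analysis added after seeing the data, these fold changes were -0.18, -0.095, 0.12 and -0.10, and that of *Pmvk* went from -0.20 to 0.66. Because the genes were chosen for their low values in these samples, all of 1 genotype, negative fold changes had to shrink without them, and nothing is read from the change.

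**Figure D3:**
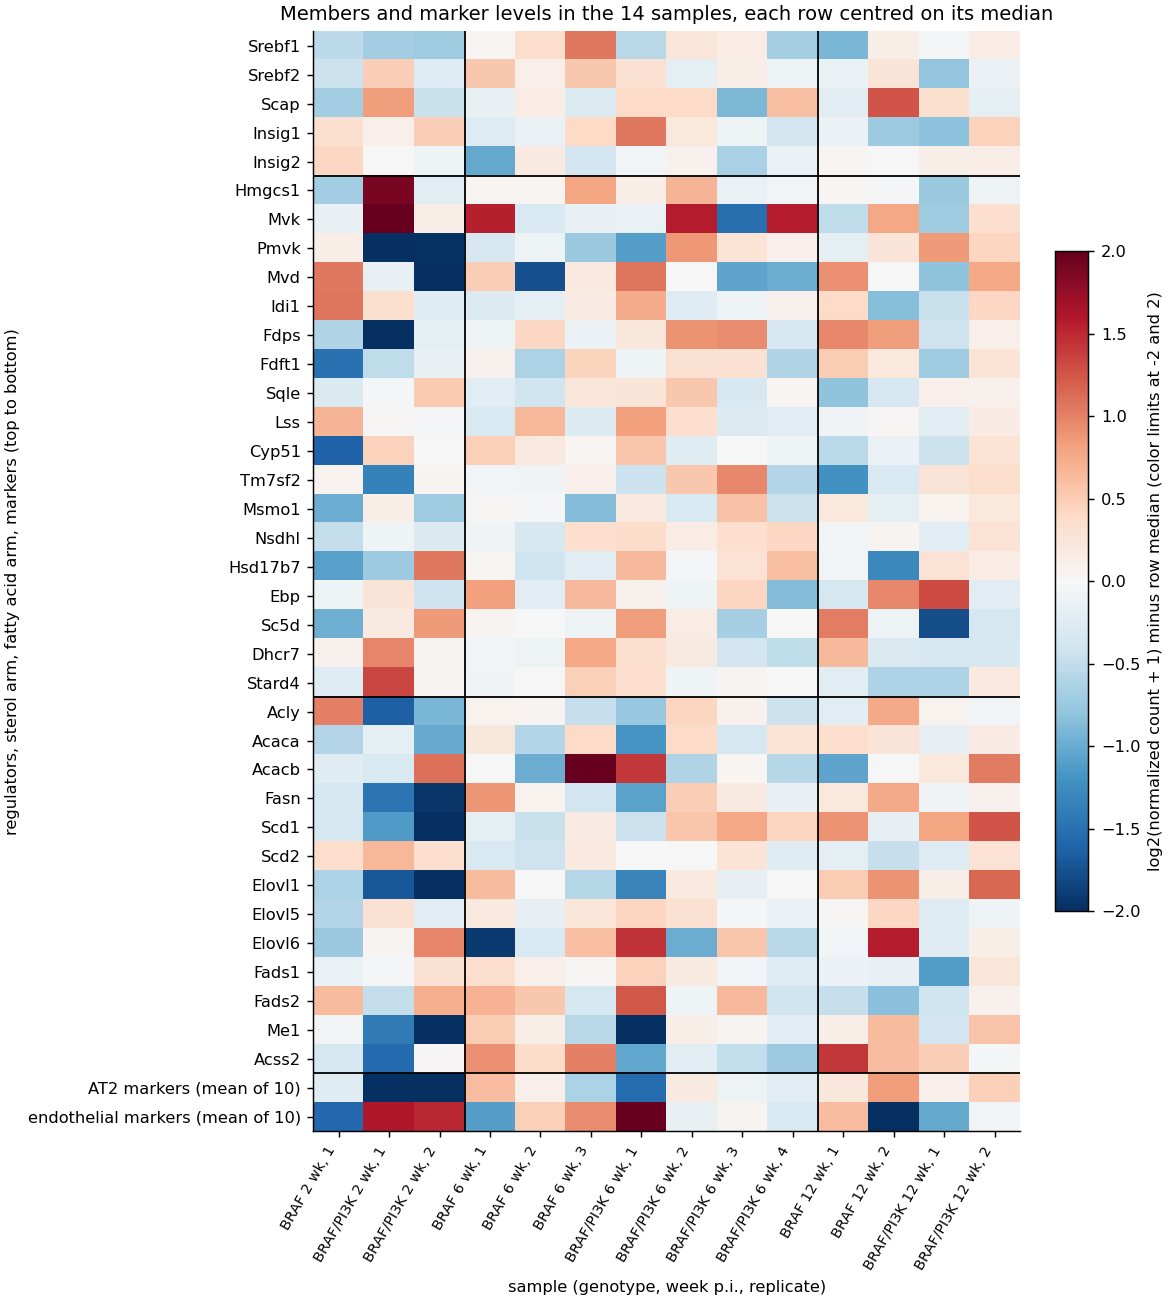
Level of each member, and of the AT2 and endothelial marker lists, in the 14 samples of the first table as log2(normalized count + 1) minus the median of the row, with samples ordered by week and genotype. The rows of *Acly*, *Fasn*, *Elovl1* and *Me1* are at their lowest in the 3 columns in which the AT2 marker row is lowest and the endothelial row highest.

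At 2 weeks the medians of the sterol and fatty acid arms had opposite signs, in a comparison of 2 samples, both labelled male, with 1 labelled female, so that sex and genotype cannot be told apart there. No member passed the limma test, where 0.0171% of all genes did, and 8 members had an unadjusted p under 0.05, where 13.5% of all genes did. This count ran from 3, with every gene that had any count, to 10, without BRAFV600E/PI3KαH1047R replicate 1 at 2 weeks. The median log2 fold change was 0.49 in the sterol arm, where 12 of 18 were positive, and -0.42 in the fatty acid arm, where 8 of 13 were negative, beside 0.01 over all genes. These medians rest on single samples: without BRAFV600E/PI3KαH1047R replicate 1 at 2 weeks they were 0.28 and -0.0029, and without replicate 2 the fatty acid median was -0.79. *Cyp51*, the lanosterol demethylase, read 155 in the BRAFV600E sample and 661 and 475 in the BRAFV600E/PI3KαH1047R samples, a log2 fold change of 1.85 ± 0.47 with an adjusted p of 0.138. The BRAFV600E value was the lowest of the 14 samples. *Hmgcs1* read 496 against 3027 and 689, the first of which was the highest of the 14, and *Sc5d*, the lathosterol desaturase, read 504 against 1126 and 1803. Their log2 fold changes were 1.54 ± 0.70 and 1.50 ± 0.68. *Acly* read 6132 against 985 and 1630 (-2.27 ± 0.53, adjusted p of 0.113) and *Pmvk* 537 against 99.1 and 124 (-2.26 ± 0.65, adjusted p of 0.169). The single BRAFV600E sample thus held the highest *Acly* value of all 14. *Scd1* read 11156 against 6446 and 3078, a log2 fold change of -1.32 ± 0.57, whereas *Scd2* read 19971 against 24906 and 19931. Without BRAFV600E/PI3KαH1047R replicate 1 at 6 weeks, which enters through the shared estimate of the spread, 2 members passed the test, *Pmvk* with an adjusted p of 0.0399 and *Acly* with one of 0.0450, as did 268 genes in all. The spread behind these calls is borrowed from other groups, so they say nothing of how BRAFV600E samples vary at 2 weeks. AT2 markers were lower in all 10 genes at 2 weeks and endothelial markers higher in all 10, with medians of -2.55 and 2.95 on the log2 scale, and their part in these differences was not tested.

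At 6 weeks, with 4 samples against 3, no member passed the test, where 0.0228% of all genes did, and 1 had an unadjusted p under 0.05, where 4.24% of all genes did. This was *Acss2*, at -1.39 ± 0.40 with a limma adjusted p of 0.873. Its groups did not overlap, as was so for 5.22% of all genes, and the exact permutation p was 0.0286, the smallest that 35 splits allow, and 1 after adjustment over all genes. The median log2 fold change was 0.20 in the regulators, 0.12 in the sterol arm, where 13 of 18 were positive, and -0.07 in the fatty acid arm. *Srebf1* read 469, 583 and 952 in BRAFV600E and 309, 539, 504 and 286 in BRAFV600E/PI3KαH1047R samples, which overlapped (-0.70 ± 0.36, adjusted p of 1). The median of the regulators turned to -0.08 without BRAFV600E replicate 1 at 6 weeks and to -0.09 without BRAFV600E/PI3KαH1047R replicate 1 at 6 weeks, and without the latter the sterol median was 0.0258. The fatty acid median turned to 0.0213 without BRAFV600E replicate 1 and to 0.0277 without BRAFV600E/PI3KαH1047R replicate 4. AT2 markers were lower in 10 of 10 genes at 6 weeks, with a median of -0.43. Endothelial markers were higher in 10 of 10 and AT1 markers in 9 of 10, both with a median of 0.27. Erythroid markers were lower in 4 of 4 tested, with a median of -0.92, and the part of these markers was not tested.

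At 12 weeks, with 2 samples a group, no member passed, where 0.0114% of all genes did, and 1 had an unadjusted p under 0.05, where 3.76% did. This was *Sc5d*, which read 2024 and 927 in BRAFV600E and 290 and 783 in BRAFV600E/PI3KαH1047R samples (-1.52 ± 0.55, adjusted p of 1), the opposite sign to 2 weeks. The median log2 fold change was 0.10, 0.08 and -0.28 for the regulators, the sterol arm and the fatty acid arm. Leaving out 1 of the 4 samples turned the sign of each of these medians, and the values are in the closing section. Macrophage markers were higher in 9 of 10 genes, with a median of 1.12, and erythroid markers lower in 4 of 4 tested, with a median of -1.44. The macrophage level was 10.13 in BRAFV600E/PI3KαH1047R replicate 1 at 12 weeks against at most 8.20 in the other 13 samples, and the part of these markers was not tested.

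**Figure D4:**
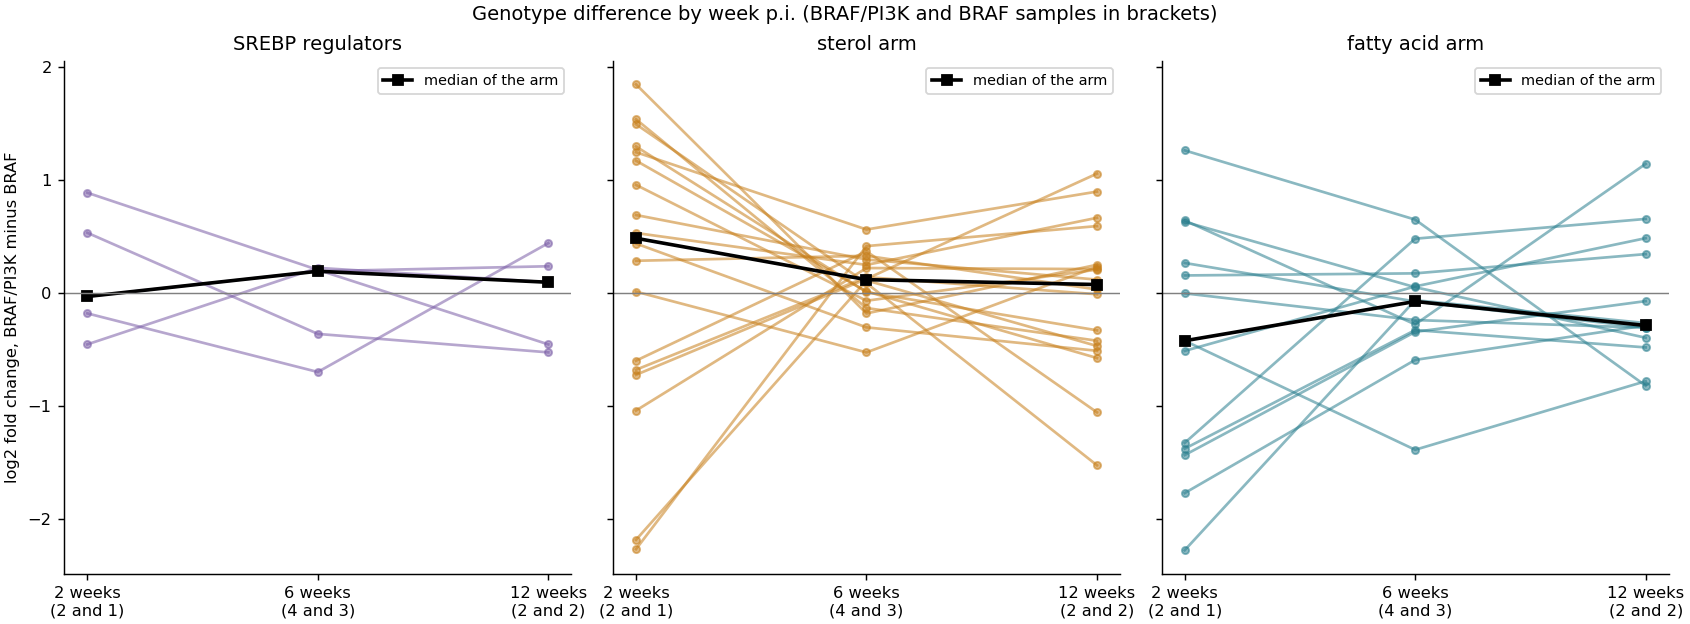
Log2 fold change of BRAFV600E/PI3KαH1047R minus BRAFV600E for each member at 2, 6 and 12 weeks p.i., 1 line a gene, with the median of the arm in black and the number of samples in brackets. The sterol arm median went from 0.49 to 0.12 and 0.08, the fatty acid arm median from -0.42 to -0.07 and -0.28.

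Whether the genotype difference itself changed with week was tested as an interaction, which rests on 1 BRAFV600E sample at 2 weeks and on 2 samples a group at 12 weeks and missed nearly all large changes in simulated data, so that the lack of a call says little. From 2 to 6 weeks no member and no gene passed (0% of genes tested), and 4 members had an unadjusted p under 0.05, where 8.95% of all genes did. These were *Pmvk* (2.68 ± 0.77), *Acly* (2.21 ± 0.63), *Scd1* (1.81 ± 0.68) and *Cyp51* (-2.03 ± 0.56), with limma adjusted p-values of 0.382, 0.382, 0.482 and 0.368. In the same interaction AT2 markers were positive in 10 of 10 genes, with a median of 2.19, and endothelial markers negative in 10 of 10, with a median of -2.77, and their part was not tested. From 6 to 12 weeks no member and no gene passed (0%), and 1 member, *Sc5d*, had an unadjusted p under 0.05 (-1.61 ± 0.70, adjusted p of 1), where 2.87% of all genes did.

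Tumor age was compared with both genotypes in 1 fit. Between 6 and 2 weeks no member passed, where 0.0513% of all genes did, and 7 had an unadjusted p under 0.05, where 11.9% did. The fatty acid arm had 11 positive and 2 negative fold changes and a median of 0.32, against 0.12 in the sterol arm and 0.02 over all genes. *Elovl1*, *Scd1* and *Fasn* had log2 fold changes of 1.36 ± 0.38, 1.37 ± 0.40 and 1.20 ± 0.34, with limma adjusted p-values of 0.206, 0.221 and 0.221. For *Elovl1* and *Fasn*, both BRAFV600E/PI3KαH1047R samples at 2 weeks are among the 3 described above as holding the lowest values. In BRAFV600E samples *Elovl1* read 4729 at 2 weeks and from 4922 to 11389 at 6 weeks. *Fasn* read 4600 at 2 weeks and from 4435 to 10683 at 6 weeks in this genotype, which overlapped. *Scd1* read 6446 and 3078 in BRAFV600E/PI3KαH1047R samples at 2 weeks, from 10527 to 24181 at 6 weeks and 24548 and 33972 at 12 weeks, so that the weeks did not overlap in this genotype, where 1.76% of all genes rose or fell over its 3 weeks without overlap. In BRAFV600E samples it read 11156 at 2 weeks, from 10440 to 15948 at 6 weeks and 26552 and 12615 at 12 weeks, which overlapped. *Scd2* went the other way at -0.50 ± 0.19 (adjusted p of 0.318), with 19931 to 24906 over the 3 samples at 2 weeks and 11854 to 18923 over the 7 at 6 weeks, and 3.09% of all genes had no overlap between these weeks. In the sterol arm *Fdps*, farnesyl diphosphate synthase, *Pmvk* and *Nsdhl*, a sterol demethylation enzyme, had log2 fold changes of 1.25 ± 0.46, 1.23 ± 0.50 and 0.48 ± 0.21. Without the single BRAFV600E sample at 2 weeks, 2 members passed, *Scd1* at 2.03 with an adjusted p of 0.0379 and *Pmvk* at 2.19 with one of 0.0446, as did 102 genes in all. The 2-week group was then only the 2 BRAFV600E/PI3KαH1047R samples, both labelled male and the lowest of the 14 in AT2 marker level. AT2 markers had positive fold changes between 2 and 6 weeks in all 10 genes, with a median of 1.65, and club cell markers in 4 of 4 tested, with a median of 1.85. AT1 markers had negative fold changes in 9 of 10, with a median of -1.04, and fibroblast markers in 7 of 8, with a median of -0.89, and the part of these markers was not tested.
Between 12 and 6 weeks no member and no gene passed (0%), and 1 member, *Elovl1*, had an unadjusted p under 0.05 (0.81 ± 0.35, limma adjusted p of 0.901), where 5.31% of all genes did. Without both BRAFV600E/PI3KαH1047R samples at 12 weeks 0 members did. The medians were 0.24 in the fatty acid arm, -0.15 in the sterol arm and -0.28 in the regulators. The last turned to 0.0274 without BRAFV600E replicate 1 at 12 weeks, and the fatty acid median was 0.0968 without BRAFV600E/PI3KαH1047R replicate 1 at 6 weeks. Median fold changes of the marker lists were 0.58 for AT2 cells, with 10 of 10 genes positive, -0.94 for endothelial cells, with 10 of 10 negative, and 1.34 for macrophages, with 9 of 10 positive, and their part was not tested.

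**Figure D5:**
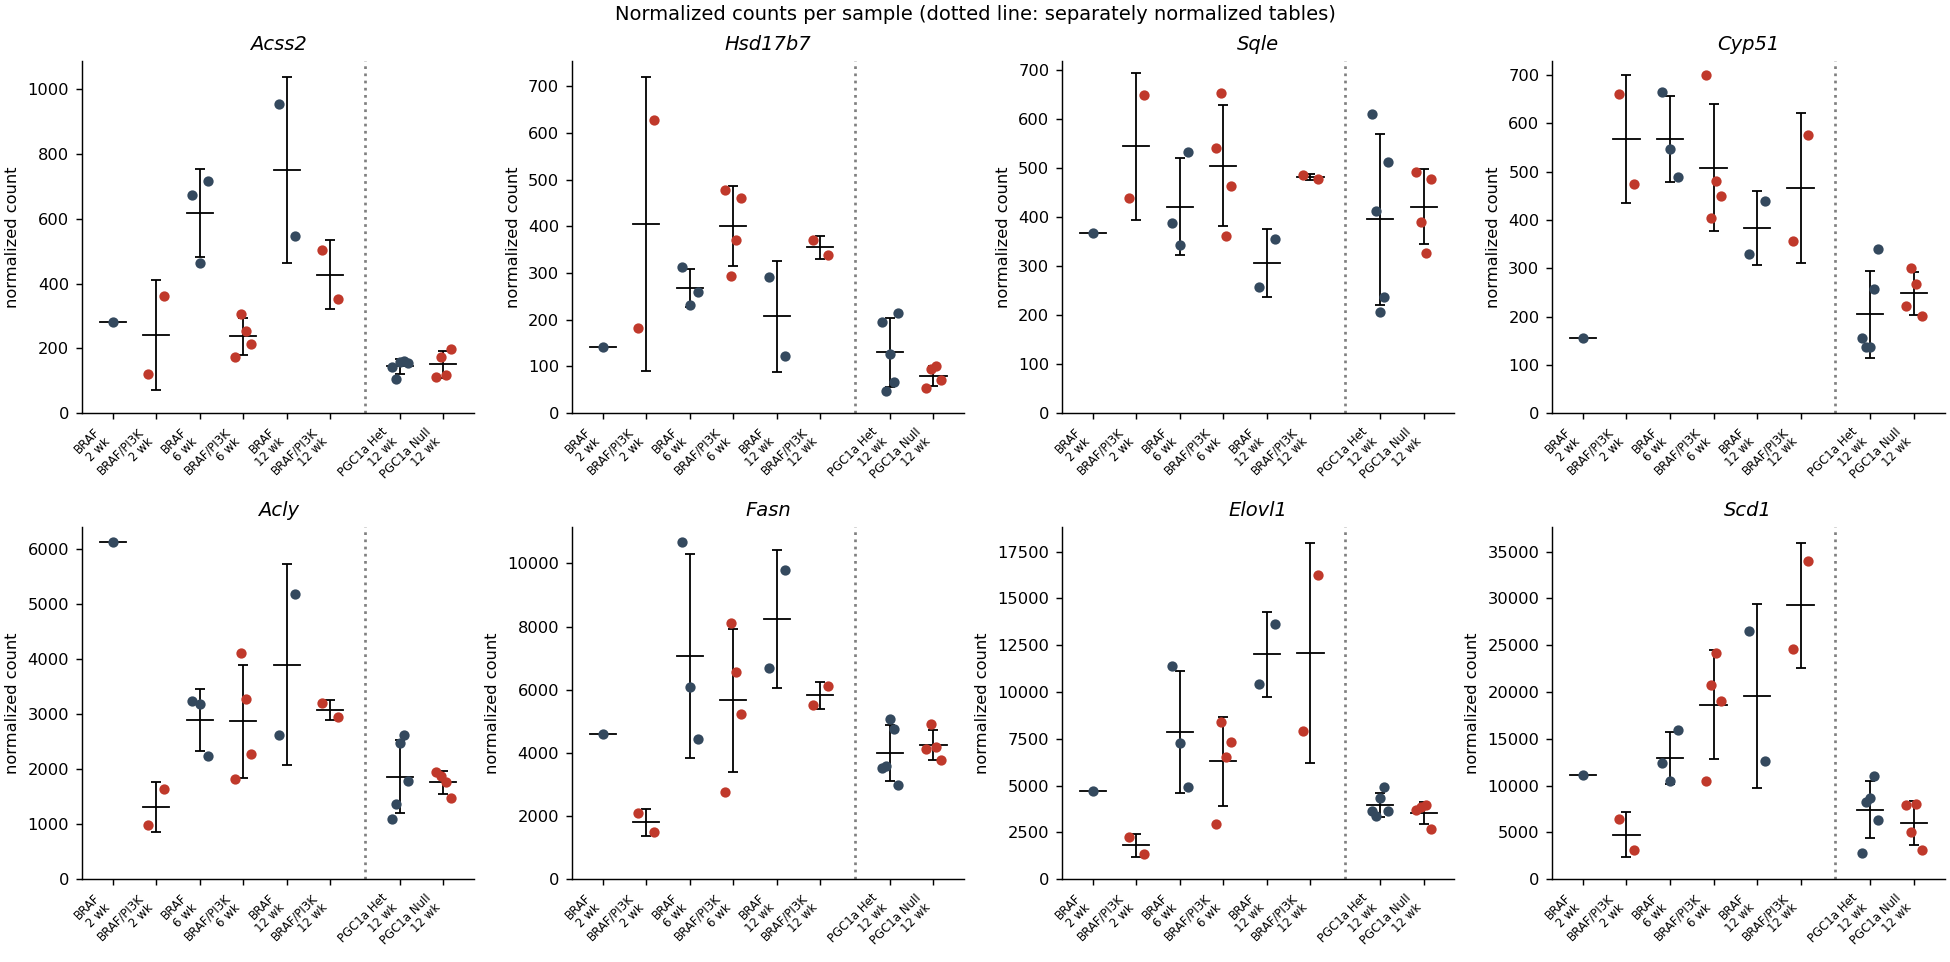
Normalized count of 8 members in each sample, with the mean and SD of each group (red points are BRAFV600E/PI3KαH1047R and BRAFV600E/PGC1αNull). *Acss2* reads 174 to 305 in the 4 BRAFV600E/PI3KαH1047R samples at 6 weeks and 462 to 718 in the 3 BRAFV600E samples, and *Scd1* reads from 3078 at 2 weeks to 33972 at 12 weeks in BRAFV600E/PI3KαH1047R samples.

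Loss of the second *Ppargc1a* allele was not accompanied by a difference in any member that passed the test. Between 4 BRAFV600E/PGC1αNull and 5 BRAFV600E/PGC1αHet samples no member and no gene passed with limma (0%), and no member had an unadjusted p under 0.05, where 3.83% of all genes did. No member had groups that did not overlap, where 1.4% of all genes did. The median log2 fold change was 0.22 in the sterol arm, where 13 of 18 were positive, -0.14 in the fatty acid arm, where 8 of 13 were negative, and -0.14 in the regulators, where 4 of 5 were negative. Without BRAFV600E/PGC1αNull replicate 4 the fatty acid median was -0.0019 and that of the regulators 0.0081. The fatty acid arm level was 9.48 ± 0.21 (n = 5) and 9.51 ± 0.24 (n = 4). *Lss*, lanosterol synthase, read 220, 260, 254, 399 and 179 in BRAFV600E/PGC1αHet and 470, 428, 289 and 330 in BRAFV600E/PGC1αNull samples. All 4 were above the mean of the former, but the ranges overlapped (0.55 ± 0.27, interval -0.02 to 1.13, exact permutation p of 0.0873, limma adjusted p of 0.998). *Srebf1* read 344, 558, 496, 670 and 490 against 337, 436, 497 and 377 (-0.30 ± 0.23), and *Srebf2* 1048, 502, 694, 638 and 446 against 541, 638, 549 and 316 (-0.36 ± 0.29). Neither pair of groups separated. *Elovl6*, an elongase of saturated chains, had the highest fold change, 1.05 ± 0.67, which rests on 1 sample: it read 313 in BRAFV600E/PGC1αNull replicate 1 and 14 to 43.8 in the other 8. For the abundant enzymes the intervals were narrower, from -0.36 to 0.58 for *Fasn*, from -0.59 to 0.57 for *Acly* and from -0.63 to 0.28 for *Elovl1*. Endothelial markers were higher in all 10 genes in BRAFV600E/PGC1αNull samples, with summed counts of 928 to 1885 against 232 to 727, club cell markers in 4 of 4 tested, macrophage markers in 10 of 10 and fibroblast markers in 7 of 7 tested. AT2 markers were lower in 10 of 10, with a median of -0.21 on the log2 scale. None of these marker genes passed the limma test, and their part in the members' values was not tested.

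Other genes of lipid metabolism, counted as lists, gave no call in these comparisons. Among 20 other SREBP pathway genes 18 were tested over all weeks between BRAFV600E/PI3KαH1047R and BRAFV600E, with 9 positive and 9 negative fold changes, a median of 0.03 and 2 at an unadjusted p under 0.05, beside 6.83% of all genes. Of 10 genes of sterol efflux and LXR signaling, which removes excess cholesterol, 7 were positive with a median of 0.35 and 0 at that p. Of 15 phospholipid and lipid droplet genes 6 were positive with a median of -0.16 and 1 at that p. Between BRAFV600E/PGC1αNull and BRAFV600E/PGC1αHet the medians of these lists were -0.08, -0.06 and -0.30, and the last had 13 of 15 genes negative with 0 at an unadjusted p under 0.05, beside 3.83% of all genes.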

How the data were processed

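RNA of sorted tdTomato+ cells was made into libraries with a Nugen Ovation Ultralow V2 kit and sequenced by the authors, who estimated transcript levels with Salmon and normalized them with DESeq2 on the Galaxy server. GRCm38 is named in the submitters' processing notes, and tool versions are not given in the sources used here. The deposited signal values are these normalized counts, 1 column a sample and not whole numbers, so a count test could not be run and depth in reads is unknown. The tables of the authors' own comparisons, which hold fold changes and p-values, were not used. There were 0 columns of per-sample values left unmapped.

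Samples were grouped by their genotype and week labels. The members, arms and lists were chosen with earlier results of these data known. All 36 members were named or counted by arm, other lipid genes and cell markers were counted as lists, and *Ppargc1a* was named as the deleted gene. Values were compared as log2(normalized count + 1) with limma 3.58.1 in R 4.3.3, two-sided, with a mean-variance trend and moderated variances. Genes entered a test where their normalized counts averaged 10 or more, which held for all 36 members in both tables, and p-values were adjusted by Benjamini-Hochberg over all genes tested. A fold change on this scale understates that of low genes. The comparison over all weeks was on genotype alone, comparisons by week came from a fit with 1 mean per genotype and week, and tumor age from an additive fit of genotype and week. The smallest groups hold 1 and 2 samples and borrow the spread of the others. Exact permutation tests of single members were two-sided, and 3 families of these were run. Whether samples came from separate mice is not stated for each, so p-values measure the spread between these samples. The fits were tested on simulated data with large known changes. Many of these were missed over all weeks and between PGC1α genotypes, most in the genotype comparisons within a week, and nearly all in both tests of a change of the genotype effect, so a member that did not pass is not shown to be alike. Gene positions came from GENCODE vM21 and promoters from RefSeq, both on GRCm38.p6, where gene symbols matched. Python 3.11.15 with numpy 2.4.6, pandas 2.3.3 and matplotlib 3.10.9 was used. Alternatives were a pseudocount of 4, a mean over 40, any count, quantile normalization, sex or week as a factor, a replicate block and leaving out each sample, and 2 more were added after seeing the data: leaving out the 2 BRAFV600E/PI3KαH1047R samples at 12 weeks, and leaving out the 3 samples with the lowest AT2 marker level.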

Additional observations from a re-analysis of the deposited data

Results flagged for a closer look

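Within a group of 4 to 10 samples, 9 of 180 pairs of member and group had 1 sample far from the nearest other value relative to the range of the group on the log2 scale, and chance alone gives about 1 in 20. BRAFV600E/PI3KαH1047R replicate 3 at 6 weeks was the lowest of its 4 for *Scap*, at 263 against 640 to 751, and the lowest of the 8 BRAFV600E/PI3KαH1047R samples for *Insig2*, at 642 against 920 to 1105. BRAFV600E/PI3KαH1047R replicate 1 at 2 weeks was lowest of the 8 for *Fdps*, at 34.5 against 122 to 313, and replicate 1 at 12 weeks was lowest of the 8 for the desaturase gene *Fads1*, at 880 against 1588 to 2610. *Me1* read 750 in BRAFV600E/PI3KαH1047R replicate 1 at 6 weeks against 2947 to 3741 in the other 3 of that week, in the sample that also had a low AT2 marker level.

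Among the 6 BRAFV600E samples, replicate 1 at 12 weeks was low for the sterol reductase gene *Tm7sf2*, at 49.9 against 93.5 to 125, and replicate 3 at 6 weeks was high for *Acacb*, at 621 against 72.1 to 152. BRAFV600E/PGC1αHet replicate 1 was low for the mevalonate kinase gene *Mvk*, at 10.03 against 37.2 to 58.6, and BRAFV600E/PGC1αNull replicate 4 was low for *Sc5d*, at 69.4 against 204 to 238.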

How the results depend on the processing

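Under the alternatives, 6612 of 6616 member fold changes kept their side of the threshold and 0 were reversed past it. The other 4 are *Pmvk* and *Acly* at 2 weeks without BRAFV600E/PI3KαH1047R replicate 1 at 6 weeks and *Pmvk* and *Scd1* between 6 and 2 weeks without the BRAFV600E sample at 2 weeks, so the number of members called ran from 0 to 2 in each of these comparisons when 1 sample was left out and was 0 in all other analyses. The number at an unadjusted p under 0.05 ran from 3 to 10 at 2 weeks (8 as reported) and from 2 to 5 over all weeks (3 as reported). Leaving out 1 sample, it ran from 1 to 3 at 6 weeks, from 0 to 2 at 12 weeks and between 12 and 6 weeks, from 4 to 8 for the change of the genotype effect from 2 to 6 weeks, from 0 to 2 for that from 6 to 12 weeks, and from 0 to 1 between the PGC1α genotypes. Because no member passed in a main comparison, keeping its side of the threshold says little of stability, and a change of sign was not counted. Without the 3 samples of lowest AT2 marker level, members whose sign changed over all weeks include *Insig1*, from 0.21 to -0.04. *Hmgcs1* went from 0.16 to -0.10 and *Acaca* from -0.27 to 0.05. The arm medians moved as well. Leaving out 1 sample, at 2 weeks the sterol arm ran from 0.28 to 0.49 and the fatty acid arm from -0.79 to -0.0029, and at 6 weeks the regulators from -0.0915 to 0.29, the sterol arm from 0.0258 to 0.25 and the fatty acid arm from -0.15 to 0.0277. Over all weeks the regulators ran from -0.12 to 0.14 and took a negative sign without BRAFV600E replicate 1 at 2 or at 6 weeks. Between the PGC1α genotypes the regulators ran from -0.28 to 0.0081 and the fatty acid arm from -0.20 to -0.0019, the highest values without BRAFV600E/PGC1αNull replicate 4. At 12 weeks the regulators ran from -0.20 to 0.11, the sterol arm from -0.21 to 0.24 and the fatty acid arm from -0.48 to 0.19. Between 6 and 2 weeks the regulators ran from -0.10 to 0.56, the sterol arm from 0.0531 to 0.33 and the fatty acid arm from 0.20 to 0.39. Between 12 and 6 weeks the regulators ran from -0.45 to 0.0274, the sterol arm from -0.25 to -0.0716 and the fatty acid arm from 0.0968 to 0.36. For the change of the genotype effect from 2 to 6 weeks the regulators ran from -0.71 to -0.0437, the sterol arm from -0.62 to -0.23 and the fatty acid arm from -0.14 to 0.20, and from 6 to 12 weeks the regulators from -0.41 to 0.18, the sterol arm from -0.30 to 0.0336 and the fatty acid arm from -0.17 to 0.41. Without both BRAFV600E/PI3KαH1047R samples at 12 weeks the fatty acid median over all weeks was -0.33. With sex as a factor, taken from the sex labels, the regulators at 2 weeks stood at 0.48. With quantile normalization the fatty acid median of the change from 2 to 6 weeks was 0.22. Without the 3 samples of lowest AT2 marker level the regulators stood at -0.0915 at 6 weeks and 0.72 between 6 and 2 weeks, the sterol arm at 0.43 between 6 and 2 weeks, and the fatty acid arm at -0.11 for the change from 6 to 12 weeks. The causes were not tested. Correlations between samples of 1 replicate number ran from -0.28 to -0.01 in the first table, where all were negative. In the second they ran from -0.47 to 0.21, with both signs. At 12 weeks in the first table, with 2 samples a group, both correlations are bound to be equal (-0.15), so they are not separate evidence. With the replicate block the fatty acid median at 2 weeks was -0.79, and no member's call changed. Not run were the block for both comparisons of weeks, and analyses that left a group needed by the comparison empty. Groups of 1 or 2 samples limit all comparisons at 2 and 12 weeks.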
